A study of Mus musculus with 5 samples.

Results

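Long noncoding microRNA host genes are transcribed loci whose RNA yields no known protein but carries, or lies beside, the hairpins from which microRNAs are cut. The 8 described here, C430049B03Rik, Mir17hg, Mir155hg, Mir22hg, Mir142hg, Mir99ahg, Mir100hg and Dnm3os, were taken by symbol from the 32285 genes of the count tables, and all 8 were present. They were measured by droplet single-cell RNA sequencing of dissociated whole mouse lungs at E18.5, shortly before birth, with 1 library per embryo. The groups were 2 heterozygous embryos (Zswim8+/-, libraries Het1 and Het2) and 3 homozygous mutant embryos (Zswim8-/-, libraries KO1, KO2 and KO3). The heterozygous group carries 1 mutant allele in every cell, so no library without a Zswim8 mutation entered any comparison, and the labels give neither the deleted part of Zswim8 nor a driver that would restrict the loss to a cell type. Each library is a separate embryo, and the cells of a library are not replicates.

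A host transcript is usually made by RNA polymerase II, and its hairpins are released in the nucleus by Drosha and trimmed in the cytoplasm by Dicer before a mature microRNA of about the length printed below is loaded into Argonaute. The mature microRNA recognises its targets mainly through its seed, the bases near its 5′ end. ZSWIM8 is the substrate adaptor of a Cullin-RING ubiquitin ligase that acts on Argonaute in target-directed microRNA degradation, a process that removes mature microRNAs after they have been made. The libraries read the 3′ ends of polyadenylated RNA, so the values below are levels of host transcripts, not of mature microRNAs.

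The mature sequences are shown because the hosts fall into related and unrelated families by seed, which groups the results that follow. They are from RefSeq (GRCm38), written 5′ to 3′ with the seed, bases 2 to 8, in capitals. Mir99ahg and Mir100hg each hold a microRNA of the miR-99/100 family, a let-7 and miR-125b. C430049B03Rik lies before miR-322, miR-503 and miR-351, and miR-351 has the seed of miR-125b, so that seed belongs to 3 of the hosts.
miR-99a-5p (Mir99ahg): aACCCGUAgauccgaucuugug
miR-100-5p (Mir100hg): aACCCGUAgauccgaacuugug
let-7c-5p (Mir99ahg): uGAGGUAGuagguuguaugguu
miR-125b-5p (Mir99ahg and Mir100hg): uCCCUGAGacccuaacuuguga
miR-351-5p (C430049B03Rik): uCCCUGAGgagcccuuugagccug
miR-322-5p (C430049B03Rik): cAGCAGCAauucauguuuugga
miR-503-5p (C430049B03Rik): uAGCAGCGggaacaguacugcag
miR-17-5p (Mir17hg): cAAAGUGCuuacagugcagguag
miR-20a-5p (Mir17hg): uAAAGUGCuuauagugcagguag
miR-155-5p (Mir155hg): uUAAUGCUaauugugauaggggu
miR-22-3p (Mir22hg): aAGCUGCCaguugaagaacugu
miR-142a-3p (Mir142hg): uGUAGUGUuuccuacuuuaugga
miR-199a-3p (Dnm3os): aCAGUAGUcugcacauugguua
miR-214-3p (Dnm3os): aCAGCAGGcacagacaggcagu
Counted from 1 at the 5′ end, miR-99a-5p and miR-100-5p differ by 1 base, U16A, outside the seed. The seeds of miR-322-5p and miR-503-5p differ by A8G. miR-17-5p and miR-20a-5p share a seed and differ by C1U and C12U.

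In the GENCODE M21 annotation of GRCm38, the hosts differ in how they carry their microRNAs. Mir17hg (ENSMUSG00000089726, chr14:115042879-115046727, plus strand) holds 6 microRNA genes, the miR-17-92 cluster, inside its exon. Mir155hg (ENSMUSG00000097418, chr16:84703167-84715245, plus) and Mir22hg (ENSMUSG00000085148, chr11:75461539-75466676, plus) carry their hairpins in exons, as does Dnm3os (ENSMUSG00000078190, chr1:162217623-162225550, plus), which runs antisense to the dynamin gene Dnm3. The hairpin of Mir142hg (ENSMUSG00000084796, chr11:87755577-87757270, plus) is intronic. Mir99ahg (ENSMUSG00000090386, chr16:77236317-77773427, plus) and Mir100hg (ENSMUSG00000074415, chr9:41327077-41716994, plus, named 3110039I08Rik in that annotation) are long loci of 537111 and 389918 bases with 3 intronic microRNA genes each. C430049B03Rik (ENSMUSG00000087365, chrX:53055046-53057190, minus) is the exception: none of the 7 microRNA genes within 10 kb lies inside the annotated gene, and mature miR-322-5p begins 719 bases beyond its 3′ end.

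Some counts cannot be tied to the host alone. Mir22hg overlaps the protein-coding gene Tlcd2 on the same strand, and Mir100hg overlaps Gm28119, so reads of these pairs may be split between the rows. Dnm3os overlaps Dnm3 on the opposite strand, and whether counting used the strand is not given in the sources used here.

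Depth was 56608582 to 93708304 UMIs (unique molecular identifiers, counted RNA molecules) per library in 8722 to 13539 barcodes, of which 3051 to 4634 were kept as cells, with a median of 9703 to 12678 UMIs per cell. The kept cells number 18869. Of these, 17566 fell into epithelial, endothelial, mesenchymal or immune clusters. Defining markers of all 4 lineages were present, as the tissue label requires. At most 1.15% of a library's barcodes recurred in another library. Xist stood at 1002 and 1045 CPM (a counts-per-million scale, over all UMIs summed) in KO1 and KO2 and at 0.0795 to 0.139 in the other 3 libraries, so both heterozygous embryos were male and 2 of 3 mutants female. Zswim8 itself read 36.5 to 40.9 CPM in all 5 libraries, which checks nothing while the deleted part is unknown. Barcodes of red cells, in which more than 50% of UMIs were haemoglobin, served as a guide to free RNA in cells not expected to make these transcripts. Their CPM counts haemoglobin in the total, so it understates other RNA against cells with little haemoglobin.

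Levels are given first as CPM of the summed cells, by library in the order Het1, Het2, KO1, KO2, KO3. They describe clusters built from the same libraries, so no test was run between cell types, and neighbours in an order are called apart only where their ranges over the 5 libraries do not overlap. The 8 genes took no part in the clustering. Clusters carry a name ending in "-like" where the fixed markers led them, and otherwise a number.

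C430049B03Rik, the host placed before the miR-322 and miR-503 cluster, was highest in epithelium. Its epithelial levels were 145, 171, 151 and 132 in Het1, Het2, KO1 and KO2, and 187 in KO3. Endothelial levels, 127, 107, 134, 154 and 141, overlapped the epithelial ones. Mesenchymal levels of 75.1 to 92.4 lay below both without overlap, and immune levels of 10.2 to 14.6 lay below those. Red-cell barcodes gave 3.54 to 10.47. Among named classes, alveolar type 1 (AT1)-like cells, the thin gas-exchange epithelium, stood apart at 428, 406, 377, 303 and 373. Arterial-like endothelium came next at 198 to 289 and did not overlap either the AT1-like cells above or the general capillary-like cells below, at 102 to 159. Alveolar type 2 (AT2)-like cells, which make surfactant, read 73.2 to 131. Inside the immune lineage, macrophage-like cells read 21.6 to 38.4, while monocyte-like cells, at 4.51 to 6.88, did not exceed the range of the red-cell barcodes.

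Mir17hg, which carries the miR-17-92 cluster known from proliferating progenitors and lymphomas, was low and widespread. Epithelial levels were 11.7, 12.4, 27.0, 16.7 and 17.5. They overlapped the mesenchymal levels of 11.3 to 14.4, which overlapped the endothelial levels of 7.17 to 12.98. Immune levels were 5.51 to 8.60 and red-cell barcodes gave 0.459 to 1.62. Its highest class or cluster was an unnamed epithelial cluster, number 12, led by Cldn18, Egfl6 and Tinag, at 13.9, 15.7, 36.8, 19.9 and 18.96. The median cell of cluster 12 held 3.43 times its library's median UMIs, and 3 markers of a second lineage were found in the cluster. AT2-like cells followed at 15.7 to 30.2, then cluster 26, which has no lineage and is led by Emcn, Gpihbp1 and Rtl8a, at 6.55 to 38.5, and mesothelial-like cells, the lung's outer covering, at 13.1 to 22.0. None of these neighbours was apart.

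The paired hosts Mir99ahg and Mir100hg carry nearly the same set of microRNAs but had different ranges. Mir99ahg was present in 3 lineages at overlapping levels, 47.4 to 82.6 in endothelium, 43.4 to 55.5 in mesenchyme and 34.3 to 61.9 in epithelium, with 5.38 to 14.9 in immune cells. Lymphatic-like endothelium read 157, 153, 144, 154 and 168, from only 6 to 33 cells per library. Arterial-like cells read 87.3 to 107 and adventitial fibroblast-like cells 71.2 to 112. In the immune lineage the transcript was concentrated in macrophage-like cells, at 64.8, 76.2, 62.3, 82.3 and 83.6, against 1.72 to 7.26 in monocyte-like cells and 1.68 to 4.69 in red-cell barcodes.

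Mir100hg was mesenchymal, at 20.99, 32.8, 28.2, 20.95 and 27.6, and did not overlap the endothelial range of 3.18 to 5.51. Adventitial fibroblast-like cells, which sit around vessels and airways, were highest at 38.3, 74.6, 59.8, 40.9 and 62.1, overlapping the unnamed fibroblast cluster 18, led by Dpep1, Abca8a and Ms4a4d, at 37.5 to 49.6. Mesothelial-like cells followed at 24.7 to 34.0. Immune cells gave 0.137 to 0.544, not above the range of the red-cell barcodes. The macrophage-like cells that held Mir99ahg had 0 Mir100hg UMIs in both heterozygous libraries, 1 in KO1, 1 in KO2 and 6 in KO3, and KO3, at 1.42, was their only library above the 0.249 to 0.722 of the red-cell barcodes.

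Dnm3os, host of miR-199a-2 and miR-214 and known from skeletal and fibroblast development, was highest in part of the mesenchyme. The mesenchymal levels were 109, 81.1, 100, 115 and 107, against 1.95 to 6.35 in epithelium, 1.14 to 6.14 in endothelium and 0.411 to 0.871 in immune cells. Red-cell barcodes gave 0.153 to 1.26. Myofibroblast-like cells read 187, 202, 223, 176 and 238. Alveolar fibroblast-like cells, at 132 to 225, overlapped them, as did cluster 31, led by Ccl11, Trac and Rgs5, at 142 to 256 and cluster 18 at 139 to 208. Adventitial fibroblast-like cells at 61.4 to 108 and smooth muscle-like cells at 18.6 to 40.1 lay below, each apart from the one above. Mesothelial-like cells, at 0.680 to 6.93, lay far under the fibroblasts, although in Mir100hg they followed adventitial fibroblast-like cells and cluster 18.

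The 3 remaining hosts were highest in myeloid classes. Mir155hg, whose microRNA is induced on immune activation, read 21.6, 18.6, 47.1, 42.8 and 29.8 in macrophage-like cells and 13.3, 20.5, 56.2, 24.5 and 26.6 in dendritic-like cells, the latter from 27 to 49 cells per library. These 2 classes overlapped each other and were apart from monocyte-like cells at 3.92 to 11.99. Red-cell barcodes held 1 Mir155hg UMI in all 5 libraries together. Outside the immune lineage its levels did not pass 2.48 in any lineage of any library.

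Mir142hg, host of the blood-cell microRNA miR-142, was highest in neutrophil-like cells at 48.6, 62.4, 64.2, 52.6 and 50.3. Monocyte-like cells, at 15.5 to 29.3, lay below without overlap, and macrophage-like cells, at 5.98 to 11.3, were lowest of the large named myeloid classes. In the epithelial, endothelial and mesenchymal sums it gave 0 to 0.554, not above the 0.230 to 1.26 of red-cell barcodes. Mir22hg, in contrast, was found in every lineage. Immune cells gave 71.5 to 81.6, apart from mesenchyme at 52.3 to 64.3. Epithelium read 42.0, 42.2, 75.3, 44.8 and 47.8, with KO1 high, and endothelium was lowest at 14.6 to 24.0. Neutrophil-like cells at 90.7 to 138, macrophage-like cells at 99.3 to 121 and monocyte-like cells at 93.1 to 107 overlapped, and general capillary-like cells were lowest of the named classes at 10.3 to 14.5.

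**Figure D1:**
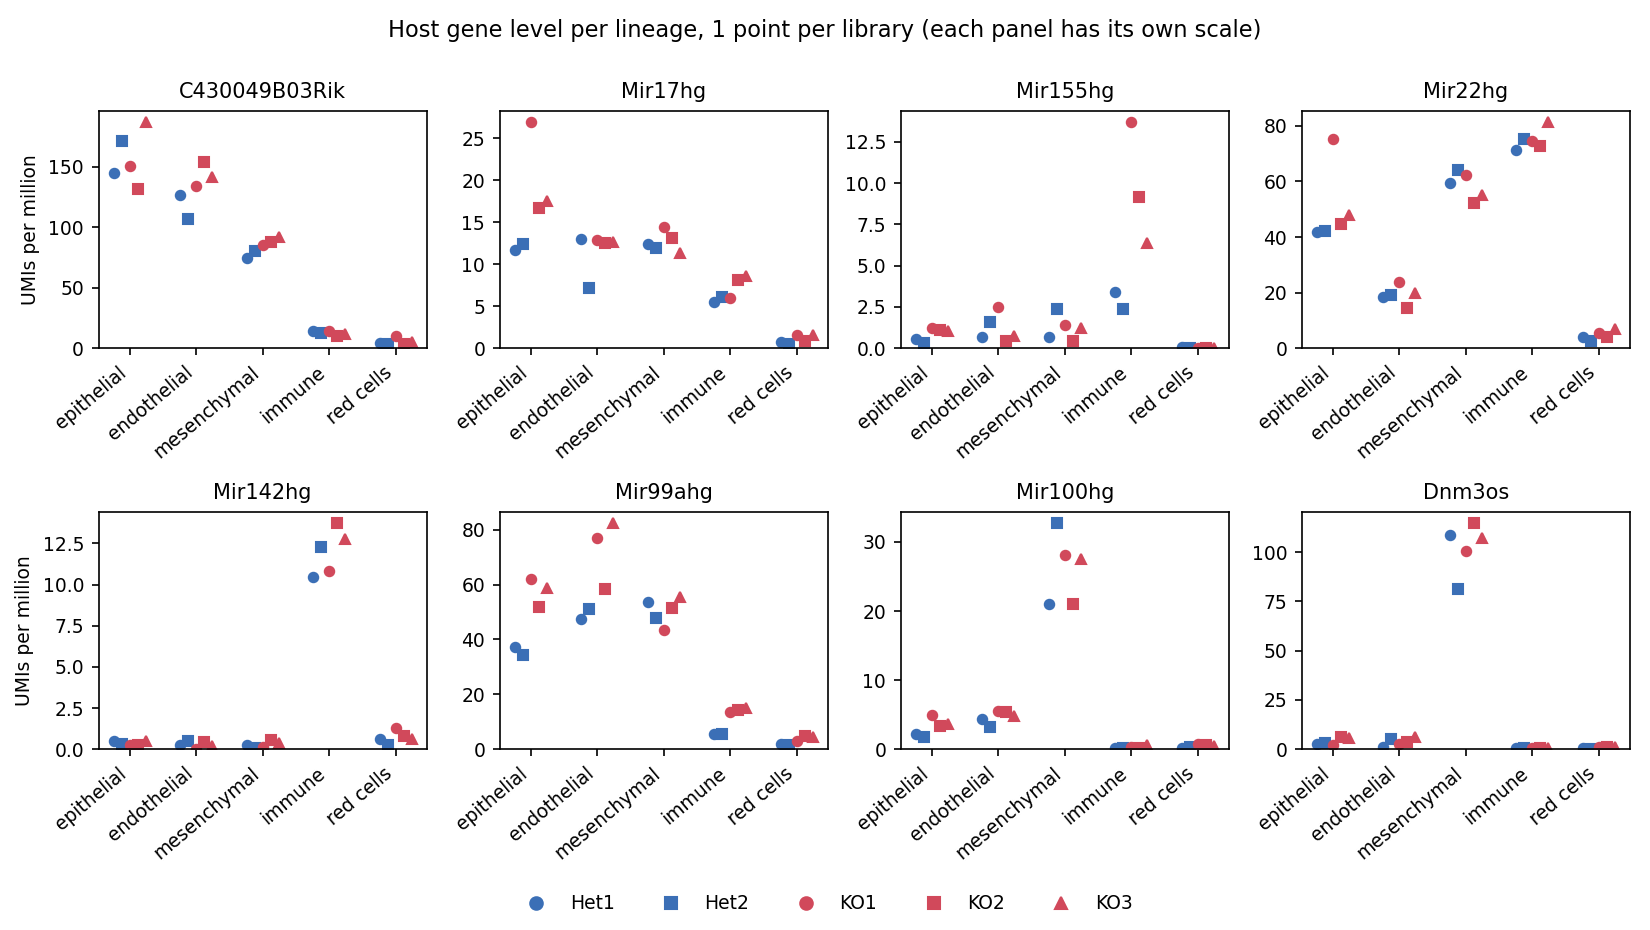
Host gene level (y axis, CPM, a separate scale in each panel) in the 4 lineages and the red-cell barcodes (x axis), with 1 point per library, blue for Het and red for KO. C430049B03Rik is lowest of the 4 lineages in immune cells, and its epithelial and endothelial levels overlap. Dnm3os and Mir100hg are mesenchymal, and Mir155hg and Mir142hg are immune.

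**Figure D2:**
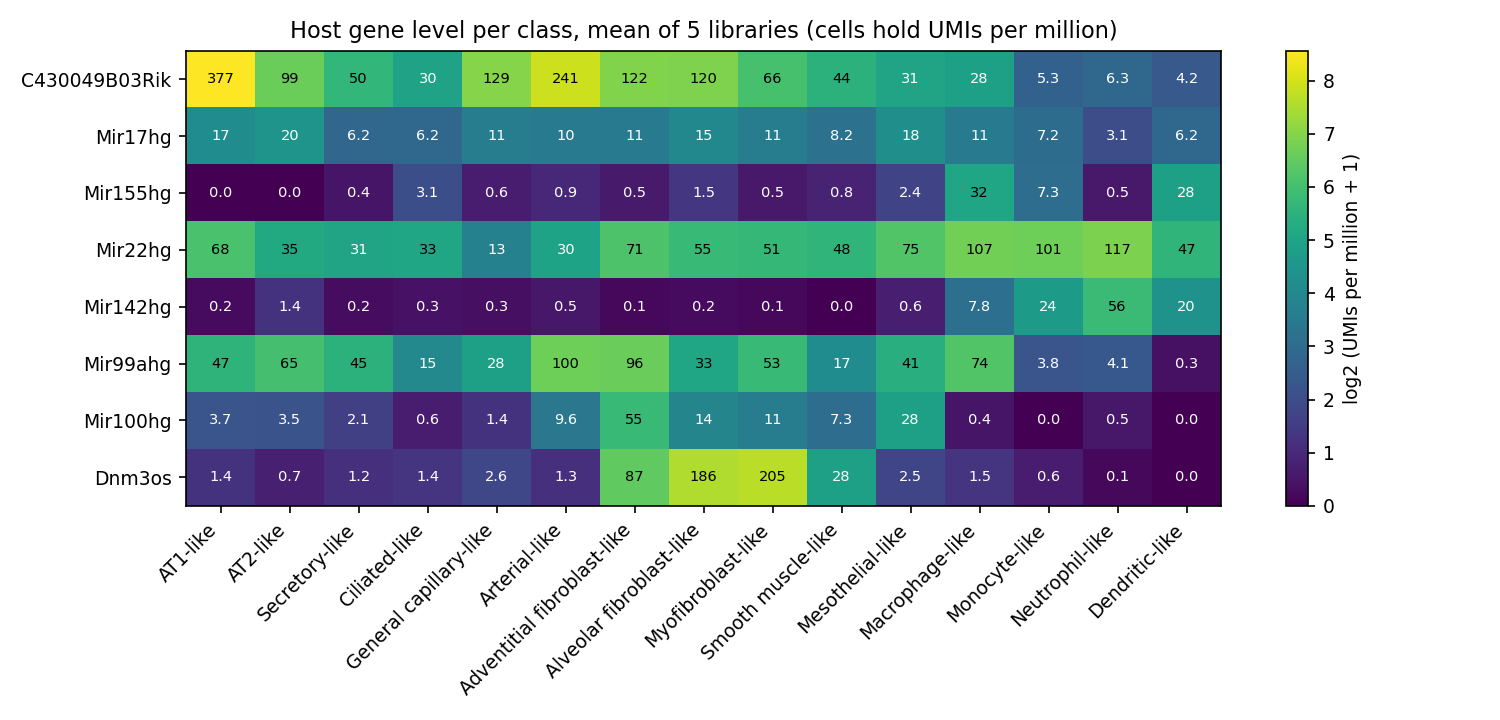
Mean level over the 5 libraries (number in each cell, CPM; colour, log2 of that value plus 1) of the 8 host genes (rows) in the named classes (columns). The largest value is C430049B03Rik in AT1-like cells at 377, and Mir99ahg reaches 73.8 in macrophage-like cells but 3.8 in monocyte-like cells.

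Over 25 classes and clusters with at least 20 cells in every library, each host was set against the 12982 genes that reached 10 CPM in one of them, by the Pearson correlation of class means on a log2 scale. All points share the same 5 libraries, and the correlations are descriptions. Dnm3os was most like Cacna1g (r = 0.968), Adcy2 and Pth1r. Mir142hg was most like 3 little-studied transcripts, Gm34084 (0.987), 1600010M07Rik and Gm26740. Mir99ahg was most like Hif3a (0.956) and Lzts2, while Mir100hg was most like Pcdh9 (0.945), Col12a1 and Kdelr3. C430049B03Rik was most like Rbm18 (0.924), Mir155hg Slc14a1 (0.884), Mir22hg Gabarap (0.879) and Mir17hg Rab9 (0.862). No gene appeared among the 3 nearest of more than 1 host.

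The genotypes were then compared gene by gene with edgeR's quasi-likelihood test on summed UMIs, with Benjamini-Hochberg adjustment over all genes tested and a threshold of 0.05. Per-library values in these comparisons are CPM after TMM scaling, so they differ slightly from the levels above.

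In whole libraries, Mir99ahg and Dnm3os were higher in the mutants. Mir99ahg read 25.5 and 24.0 in the heterozygotes and 39.5, 35.8 and 40.1 in the mutants, and the groups did not overlap. The difference was 0.64 on the log2 scale (SE 0.07, adjusted p = 0.0202). Dnm3os read 14.4 and 14.4 against 33.0, 22.4 and 24.5, also without overlap (log2 fold change 0.88, SE 0.17, adjusted p = 0.0488). These were 2 of 8 hosts tested, both higher, while 4.22% of all genes passed and 1.13% passed as higher. The median log2 fold change was 0.55 over the hosts and 0.01 over all genes.

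The other 6 hosts did not pass the test in whole libraries. Mir155hg read 1.96 and 1.69 against 5.95, 4.26 and 3.23 (log2 fold change 1.29, SE 0.28, adjusted p = 0.0625). Mir17hg read 9.11 and 9.10 against 14.0, 11.96 and 11.8 (0.47, SE 0.11, adjusted p = 0.0694). In 4 of 8 hosts the groups did not overlap, as in 46.9% of all genes. Mir100hg gave 0.66 (SE 0.34) with overlapping groups. C430049B03Rik, Mir22hg and Mir142hg gave 0.04, 0.04 and -0.06.

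Both whole-library calls were lost when embryo sex was added to the model, where the adjusted p was 0.151 for Mir99ahg and 0.275 for Dnm3os, and without Het1 (0.152 and 0.274), Het2 (0.153 and 0.240) or KO3 (0.0624 and 0.101). In such sums, more cells of a type and more RNA per cell cannot be told apart. Mesenchymal cells, which hold Dnm3os, made up 11.8% and 15.7% of kept UMIs in the heterozygotes and 31.6%, 17.5% and 20.98% in the mutants.

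Within the mesenchyme itself, Dnm3os read 110 and 79.3 in the heterozygotes and 103, 115 and 105 in the mutants. The groups overlapped, and the log2 fold change was 0.19 (SE 0.14, adjusted p = 0.586). Mir99ahg also overlapped there, at 54.6 and 46.9 against 44.7, 51.6 and 54.6, with a log2 fold change of -0.01 (SE 0.12). Mir100hg gave -0.06 (SE 0.20). edgeR called 0 of 7 hosts tested in this lineage and DESeq2 also 0, with 0.0358% of all genes called by edgeR, and 1 host, C430049B03Rik, had an unadjusted p under 0.05, as did 1817 of the 13980 genes tested. Mir142hg was too low to test.

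In epithelium, 1 of 7 hosts passed the test, against 7.59% of all genes, and it was higher, as were 2.90% of genes. Mir99ahg read 37.4 and 34.6 in the heterozygotes and 64.0, 49.8 and 59.0 in the mutants, so every mutant library was higher. Its log2 fold change was 0.67 (SE 0.13, adjusted p = 0.0194). Its partner Mir100hg read 2.18 and 1.72 against 5.05, 3.24 and 3.73 (1.00, SE 0.27, adjusted p = 0.0667), without overlap and short of the threshold. Mir17hg and Mir155hg gave 0.73 and 1.26 with adjusted p of 0.0936 and 0.103. In 5 of 7 hosts the groups did not overlap, as in 44.6% of genes. C430049B03Rik read 145 and 172 against 156, 127 and 188, with no difference beyond the spread (-0.01, SE 0.16).

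The makeup of the epithelial sums also differed between genotypes. Cluster 12 held 41.1% and 48.6% of epithelial UMIs in the heterozygotes and 60.7%, 59.4% and 65.8% in the mutants. The 8 endothelial markers summed to 1079 to 1147 CPM in epithelial sums of heterozygotes and 245 to 436 in mutants, and the 8 mesenchymal markers to 114 to 158 and 187 to 392. Without cells that carried at least 3 markers of another lineage, the epithelial Mir99ahg difference was 0.44 (adjusted p = 0.245), and without Het1 or Het2 the adjusted p was 0.0999 or 0.164.

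Within cluster 12 alone, Mir99ahg read 43.6 and 41.5 against 81.6, 62.9 and 62.4 (0.69, SE 0.14, adjusted p = 0.00868). Cells with markers of another lineage were not left out of this cluster in any fit. Mir100hg read 1.85 and 2.08 against 7.01, 4.08 and 4.01 (1.27, SE 0.34, adjusted p = 0.0287), from 16 to 47 UMIs per library. Groups that did not overlap were common in this cluster, in 52.3% of genes, and Mir22hg, Mir17hg and C430049B03Rik had them too. Both paired hosts passed and were higher in every mutant library, where 20.4% of all genes passed and 8.32% passed as higher. With sex as a covariate the adjusted p were 0.117 and 0.213, without Het1 they were 0.0837 and 0.183, and without Het2 0.109 and 0.150. AT2-like cells drawn at the finer clustering resolution of 2 gave plain Mir99ahg levels of 61.8 and 55.4 against 80.3, 70.7 and 70.0, while the TMM-scaled fit gave a log2 fold change of 0.10 (adjusted p = 0.664).

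In endothelium, edgeR called 0 of 6 hosts tested against 5.09% of all genes, 2 hosts had an unadjusted p under 0.05, as 20.4% of genes did, and DESeq2 called 1. Mir99ahg read 47.5 and 50.4 against 77.5, 59.4 and 83.0 (0.58, SE 0.15, adjusted p = 0.0667). Without KO2, its adjusted p was 0.00755. C430049B03Rik read 127 and 105 against 135, 157 and 142 (0.32, SE 0.11, adjusted p = 0.162). Both had groups that did not overlap, as 38.8% of genes did. The share of endothelial Mir99ahg UMIs that came from lymphatic-like cells was 13.5% and 24.9% in the heterozygotes and 44.3%, 19.2% and 50.4% in the mutants, with 10, 6, 33, 20 and 29 such cells.

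General capillary-like cells, the microvascular endothelium at clustering resolution 1, gave calls for 2 of 4 hosts tested, both higher, against 9.86% of all genes called and 3.81% called higher. Mir99ahg read 19.6 and 18.1 against 29.1, 37.1 and 37.5 (0.89, SE 0.19, adjusted p = 0.0102). C430049B03Rik read 115 and 101 against 130, 144 and 162 (0.43, SE 0.12, adjusted p = 0.0388). Neither was called by DESeq2 (adjusted p of 0.0861 and 0.141) or by edgeR without Het1 (0.0990 and 0.155) or Het2 (0.124 and 0.364), and the second was not called without KO2 (0.0810) or KO3 (0.113).

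At resolution 2 the endothelium gave general capillary-like and aerocyte-like cells, the latter the gas-exchange capillary type. The general capillary-like cells drawn there are not the resolution 1 class less its aerocyte-like cells. The aerocyte-like cells numbered 172 and 118 in the heterozygotes and 12, 15 and 18 in the mutants, and held 15, 15, 0, 3 and 3 Mir99ahg UMIs. In the general capillary-like cells of resolution 2, plain Mir99ahg levels were 52.9 and 49.1 against 65.4, 46.2 and 53.8. The groups overlapped and the log2 fold change was 0.10 (adjusted p = 0.874). The whole endothelium without aerocyte-like cells gave 0.27 (adjusted p = 0.470). The C430049B03Rik difference was 0.35 (adjusted p = 0.342) at that resolution.

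In immune cells Mir99ahg and Mir155hg were higher in the mutants. Mir99ahg read 5.69 and 5.50 in the heterozygotes and 13.3, 14.5 and 14.3 in the mutants, a log2 difference of 1.33 (SE 0.10, adjusted p = 0.000533). Mir155hg read 3.54 and 2.42 against 13.6, 9.14 and 6.07 (1.65, SE 0.34, adjusted p = 0.0234), again higher in every mutant. For both hosts the groups did not overlap, as in 41.7% of genes. The Mir99ahg call held under omission of any 1 library, with adjusted p of 0.000265 to 0.00871. They were 2 of 7 hosts tested, against 8.08% of all genes called and 3.41% called higher. Mir22hg read 73.8 and 76.7 against 74.0, 72.7 and 77.9, and its difference was -0.01 (SE 0.06). Mir142hg gave 0.07 (SE 0.12).

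Macrophage-like cells made up 9.75% and 9.36% of immune cells in the heterozygotes and 27.6%, 19.9% and 20.8% in the mutants. They held 79.2% to 91.7% of all immune Mir99ahg UMIs and 42.4% to 72.0% of immune Mir155hg UMIs. Inside this class, Mir99ahg read 68.6 and 75.5 against 62.0, 82.7 and 81.6. The groups overlapped, and the log2 fold change was 0.07 (SE 0.15, adjusted p = 0.903). Mir155hg read 22.9 and 18.4 against 46.9, 43.0 and 29.1 in the same cells. These groups did not overlap, as in 31.0% of genes, and the log2 fold change was 0.92 (SE 0.24), with an adjusted p of 0.105.

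edgeR called 0 of 6 hosts tested in macrophage-like cells, against 1.36% of genes, with 0 calls by DESeq2 and 1 unadjusted p under 0.05, as in 12.5% of genes. That host was Mir155hg, which was called without KO3 (adjusted p = 0.00999), with no low-count filter (0.00014) and with the replicate number as a block (7.65e-07). It stood at 0.637 with sex as a covariate. KO3 has no same-numbered heterozygote, so the block fit rests on the other libraries, and whether the numbers pair embryos is not known. The class joins 3 clusters: 15, led by Ms4a7 and C1qa, 16, led by Crybb1 and Cryba4, and the small cluster 39, led by Ccl7 and Ccl2. Cluster 16, with 552 cells, was shallow: its median cell held 0.186 times its library's median UMIs. Of the lineage markers, 4 erythroid ones were found in it and at most 3 of any other lineage. The part of this cluster in the values of the class was not tested. With macrophage-like cells left out, an alternative chosen after the data were seen, immune Mir99ahg was 1.23 and 0.803 against 1.39, 2.50 and 2.44 CPM, its log2 fold change 1.04 and its adjusted p 0.108. Mir155hg gave 0.94 (adjusted p = 0.239). Mir155hg in all immune cells also lost its call with the sex covariate (adjusted p = 0.155) and without Het1, Het2 or KO2 (0.0790, 0.194 and 0.0576).

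In monocyte-like cells edgeR called 0 of 6 hosts, against 0.127% of genes, with 0 calls by DESeq2 and 1 unadjusted p under 0.05, as in 10.6% of genes. Mir155hg read 4.67 and 3.96 against 10.3, 12.1 and 5.50 there (1.06, SE 0.41, adjusted p = 0.411). Neutrophil-like cells had 2 testable hosts and 0 calls by edgeR or DESeq2, at an unadjusted p under 0.05 also 0, against 0.0566% of genes called and 8.43% at that unadjusted p. Mir22hg, the higher of the 2, read 148 and 128 in the heterozygotes against 90.8, 109 and 122 in the mutants (-0.35, SE 0.16, adjusted p = 0.593), and these groups did not overlap, as in 25.8% of genes. Mir142hg, which had its highest level in these cells, gave -0.11 (SE 0.20). Mir99ahg was too low to test in them, with 1 and 1 UMIs in the heterozygotes and 6, 5 and 5 in the mutants. Of the other large unnamed clusters, the immune clusters 4, 6 and 8 and the fibroblast cluster 18 had 0 calls among 4, 4, 4 and 6 hosts by either tool, and an unadjusted p under 0.05 for 1 host in all, C430049B03Rik in cluster 8 (-0.76, adjusted p = 0.0856). The percentages of genes called there were 1.29, 3.11, 2.29 and 1.13, and those with an unadjusted p under 0.05 were 14.8, 17.5, 14.0 and 11.8.

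A test of whether the genotype difference itself varied among the 4 lineages, with the library as a block, called 1 of 8 hosts against 8.52% of genes. That host was Mir99ahg (adjusted p = 0.00131). Relative to mesenchyme, its log2 difference between genotypes was larger by 1.33 in immune cells, 0.63 in epithelium and 0.60 in endothelium. Mir100hg and Mir155hg did not pass (adjusted p = 0.0809 and 0.108). The shifts in cell makeup given above enter this test as well, and their part in the result was not tested.

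**Figure D3:**
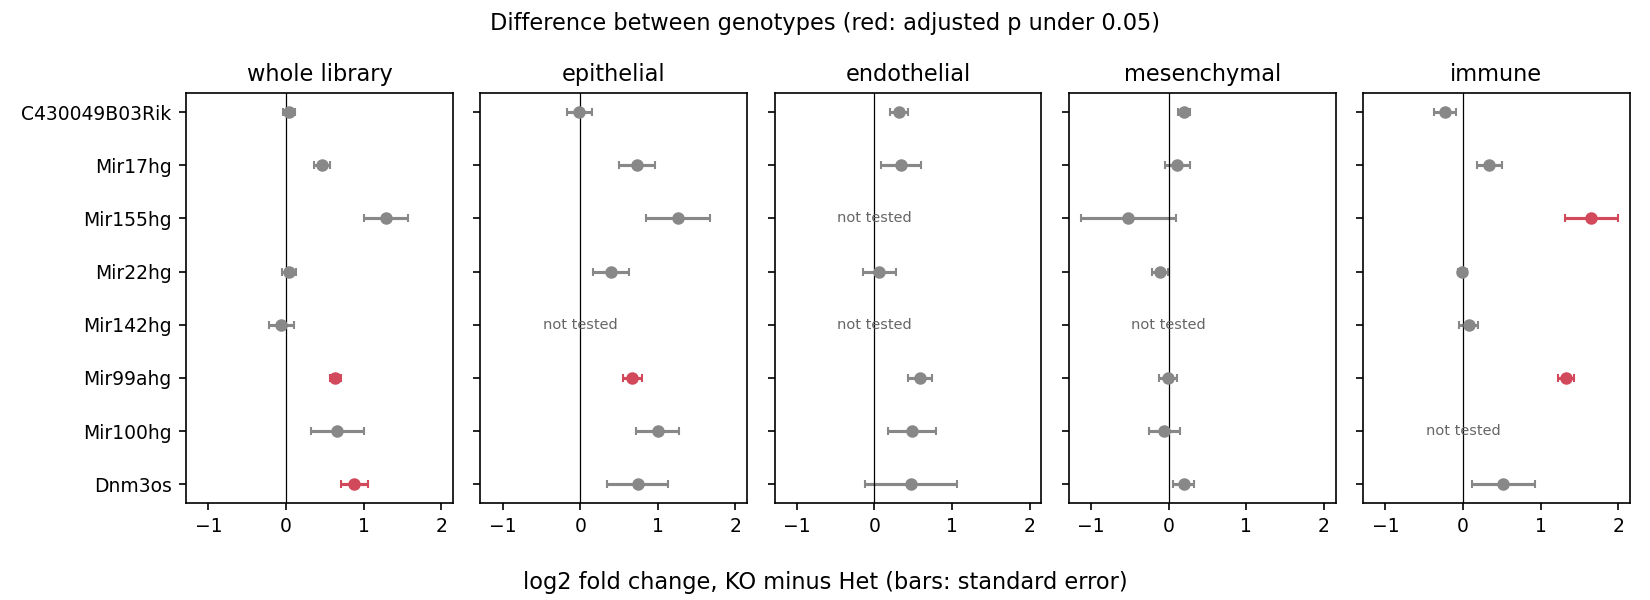
Log2 fold change, KO minus Het (x axis; bars, standard error), of the 8 host genes (rows) in whole libraries and in each lineage (panels), from edgeR fits to 2 Het and 3 KO libraries. Points in red passed the adjusted threshold of 0.05: Mir99ahg in 3 panels, Dnm3os in whole libraries and Mir155hg in immune cells.

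**Figure D4:**
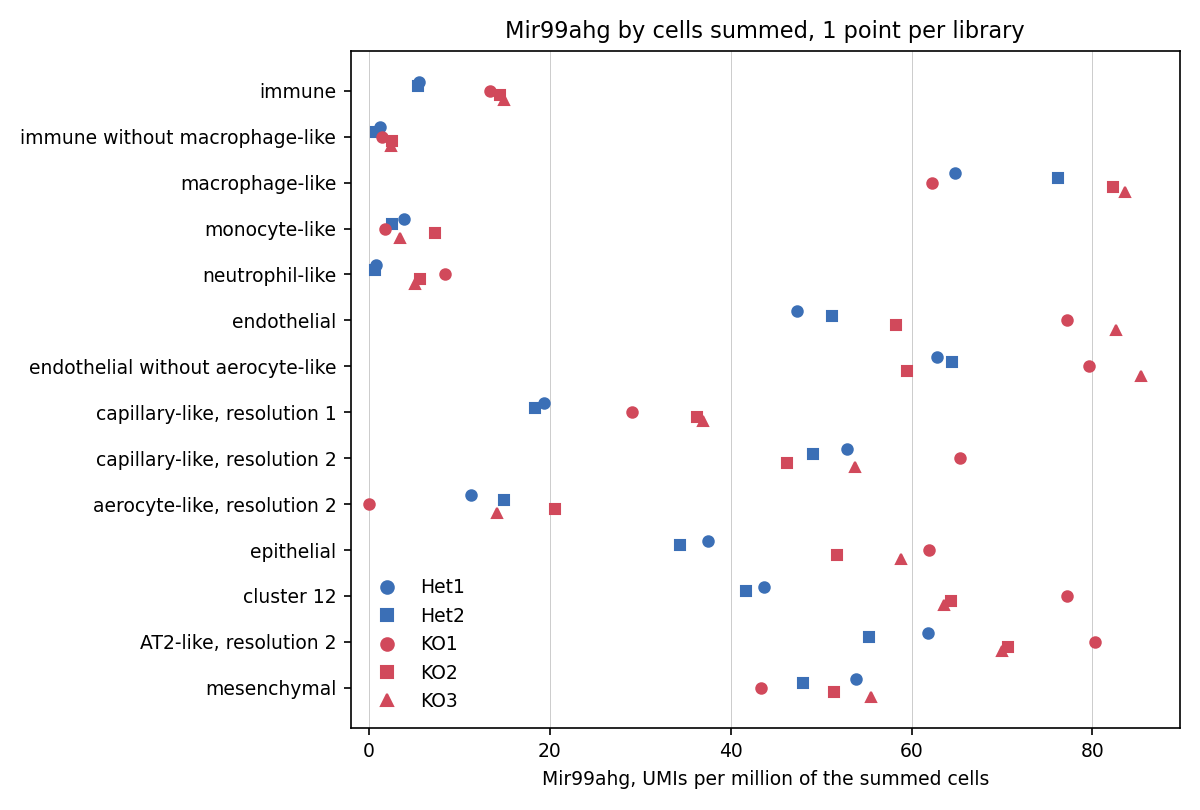
Mir99ahg level (x axis, CPM of the summed cells) in lineages, classes and subsets (rows), with 1 point per library, blue for Het and red for KO. The immune sums separate by genotype, from 5.38 and 5.51 to at least 13.4, while the macrophage-like cells within them overlap.

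Other genes that carry microRNAs give the setting for these values. Of 46 such genes listed with earlier results of these data known, 40 were testable in whole libraries. Of these 2 passed, against 4.22% of all genes. Both were higher in the mutants: Slit2 (0.48), an axon and vessel guidance ligand, and Mcm7 (0.34), a subunit of the replicative helicase. In epithelium 8 of 39 passed, 5 higher and 3 lower, against 7.59% of all genes called. The largest increases were H19 (1.96), an imprinted noncoding RNA, and the channel gene Trpm3 (1.06). The largest decreases were Egfl7 (-1.61), an endothelial gene, and Mest (-1.20), a paternally expressed imprinted gene. Without cells carrying markers of another lineage, Egfl7 and Mest stood at -0.33 and -0.45 (adjusted p = 0.681 and 0.481), so neither was called. In the same edgeR fit Trpm3 stood at 0.91 (adjusted p = 0.122) and was not called, while H19 kept its call at 1.73 (adjusted p = 0.00403).

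In endothelium 4 of 37 passed, against 5.09% of all genes. Ppargc1b was higher (1.65), and Meg3 (-0.90), Rian (-0.72) and Ctdsp1 (-0.54) were lower, the first 2 of these being imprinted noncoding RNAs of the Dlk1-Dio3 region. Without cells carrying markers of another lineage, Rian stood at 0.54 (adjusted p = 0.420), so its direction turned, and Meg3 at -0.24 (adjusted p = 0.721). In immune cells 4 of 37 passed, all higher, led by H19 (1.57) and Tln2 (0.59), against 8.08% of all genes called and 3.41% called higher. Without macrophage-like cells Tln2 turned to -0.14 (adjusted p = 0.551), and H19 stood at 1.77 (adjusted p = 0.0686), so it was not called. In mesenchyme 0 of 39 passed by edgeR, with 7 at an unadjusted p under 0.05. Dnm3, which Dnm3os overlaps on the opposite strand, did not pass in whole libraries (-0.03) or in mesenchyme (-0.31). Of the 12 calls named here for other carriers, those of H19 in epithelium, Egfl7 and Meg3 held without either heterozygous library. The other 9 were lost without Het1, and all of these but Trpm3 and Tln2 also without Het2 (adjusted p from 0.0716 to 0.296). Calls were also lost without KO1 for Ppargc1b and Ctdsp1, without KO2 for Slit2, Mcm7, Mest and Ppargc1b, and without KO3 for Slit2 and Mcm7 (0.0524 to 0.0896). With sex as a covariate, the calls of Slit2, Mcm7, Mest, Ppargc1b, Rian, Ctdsp1, Tln2 and immune H19 were lost (adjusted p from 0.0605 to 0.270).

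Host levels were also compared between cycling cells and the other cells of the same lineage and library, the library being a block. A cell was called cycling if it had a UMI of at least 3 of 10 mitotic genes. This is a range of a count and not a cell type: between 27 and 275 cells per lineage and library had exactly 2 or 3 of the genes, at the edge of the rule. Cycling cells were deeper, with medians of 44222 to 80870 UMIs against 8507 to 15500 in epithelium and 12397 to 21830 against 6935 to 11719 in the other 3 lineages, and they include a different mix of classes. The part of either in the results was not tested.

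Most hosts were lower per UMI in cycling cells. In mesenchyme 5 of 6 hosts tested passed, all lower, against 28.9% of genes called and 13.5% called lower. Dnm3os averaged 59.9 CPM in cycling and 120 in other cells (log2 difference -1.11, SE 0.20, adjusted p = 0.00227) and was lower in 5 of 5 libraries. Mir100hg (-0.82), Mir99ahg (-0.79), C430049B03Rik (-0.61) and Mir22hg (-0.60) were lower in 5 of 5 libraries as well. For Mir99ahg the cycling range of 28.1 to 38.3 did not overlap the other cells' 51.0 to 63.3.

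In epithelium 5 of 7 passed, 4 of them lower, against 46.9% of genes called and 23.4% called lower. C430049B03Rik showed the clearest separation, 74.1 to 133 in cycling and 207 to 271 in other cells (-1.23, SE 0.07, adjusted p = 9.98e-07). Mir99ahg (-0.78), Mir22hg (-0.54) and Mir17hg (-0.50, adjusted p = 0.00839) were also lower, and Mir17hg passed only with TMM scaling (adjusted p = 0.0883 with library size alone). Mir155hg was higher (2.22), from 5 to 17 UMIs in cycling and 0 to 3 in other cells per library, and was not called when cycling required 5 genes (1.45, adjusted p = 0.0777). In endothelium 3 of 6 passed, all lower, against 1678 of 11215 genes called and 5.63% called lower: Mir100hg (-1.69, from 2 to 6 UMIs in cycling cells), Mir99ahg (-0.63) and C430049B03Rik (-0.46). The Mir100hg call was lost without Het1, KO2 or KO3 (adjusted p = 0.0530, 0.0838 and 0.0760), and that of C430049B03Rik without KO1 or KO2 (0.0757 and 0.0640).

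In immune cells 5 of 6 passed, 4 of them lower, against 62.0% of genes called and 31.4% called lower. Mir155hg (-1.40), Mir99ahg (-1.26), Mir142hg (-1.24) and Mir22hg (-0.76) were lower in cycling cells in 5 of 5 libraries. Mir142hg read 5.67 to 7.18 in cycling and 13.7 to 18.6 in other cells. C430049B03Rik was higher (0.28, adjusted p = 0.0494), in 4 of 5 libraries, and that call was lost without Het1, Het2, KO2 or KO3 (adjusted p = 0.260, 0.146, 0.0558 and 0.0692). Mir17hg, the host best known from proliferating cells, was not higher in the cycling cells of any lineage by this test: the differences were 0.04 (SE 0.11) in immune cells, -0.07 (SE 0.20) in endothelium and -0.39 (SE 0.14, adjusted p = 0.0591) in mesenchyme.

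**Figure D5:**
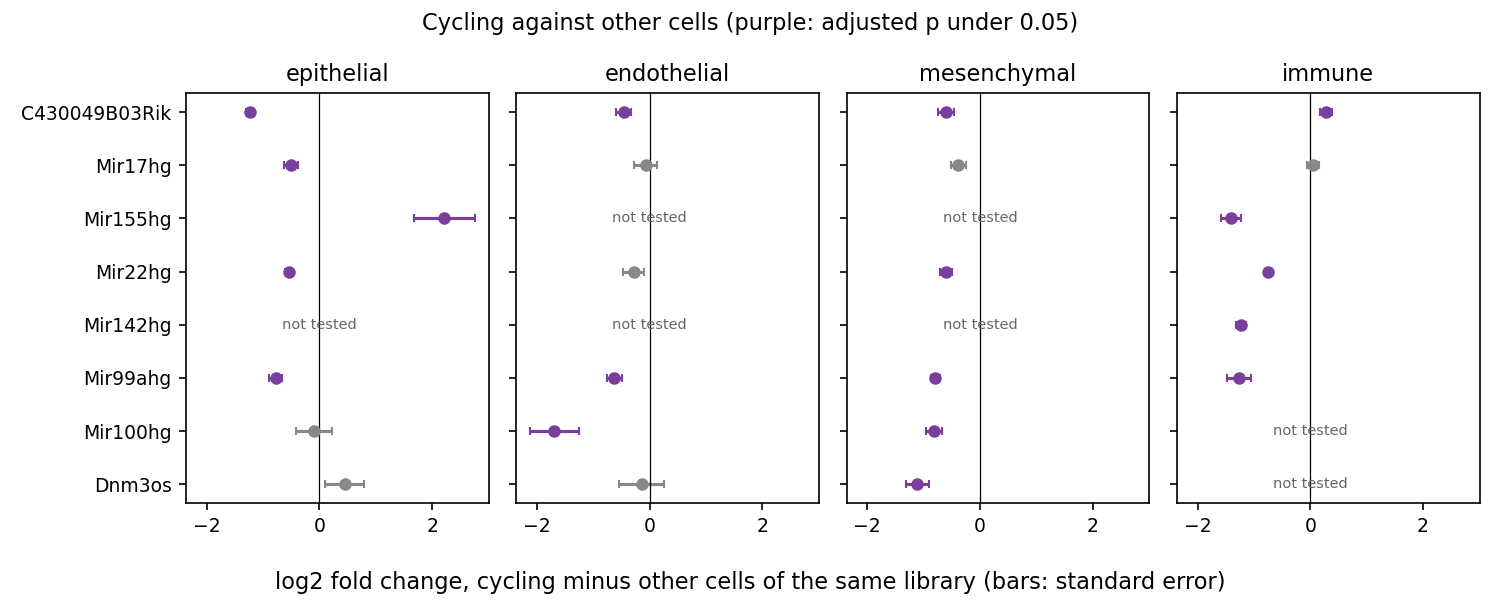
Log2 fold change between cycling and other cells of the same library (x axis; bars, standard error) for the 8 host genes (rows) in each lineage (panels), over 5 libraries. Points in purple passed the adjusted threshold of 0.05, and 16 of these 18 lie to the left of 0.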

How the data were processed

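UMI counts per gene and barcode were deposited by the authors for 5 libraries. They were made with Cell Ranger 4.0.0 on mm10, per the submitters' processing notes. Whether intronic or antisense reads were counted is not given in the sources used here. Barcodes were kept from 500 detected genes upward, up to a mitochondrial share of 15%. Red cells were set aside and doublets, scored against simulated pairs, were removed. Cells were clustered (scanpy 1.11.5, Leiden resolution 1, 2000 variable genes, hosts left out), and 41 clusters were named from fixed markers by rules set after the clusters were seen. 23 received a class and 5 had no lineage.

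UMIs were summed per library and group of cells. edgeR 4.0.16 (TMM, filterByExpr, quasi-likelihood, two-sided) tested KO against Het over all genes, in whole libraries, lineages, and classes or clusters with at least 100 cells in every library. DESeq2 1.42.0, other scaling, filters and cell sets, a sex covariate and leaving out each library were alternatives. The fitting code was tested on simulated data. Likeness used genes of at least 10 CPM (counts-per-million UMIs). All 8 hosts are named; of the other carriers, those with the 2 largest calls in each direction per fit. Members and lists were chosen with earlier results of these data known.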

Additional observations from a re-analysis of the deposited data

Results flagged for a closer look

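The genotype difference of Mir99ahg differed between lineages (edgeR quasi-likelihood F test of the genotype by lineage terms, adjusted p = 0.00131). It was flagged because effects under the same contrast differed between groups of cells by a test of the difference itself. The log2 fold change was 1.33 in immune cells, 0.67 in epithelium, 0.58 in endothelium and -0.01 in mesenchyme. Macrophage-like cells, the immune cells with the transcript, made up 9.36% to 9.75% of immune cells in the heterozygotes and 19.9% to 27.6% in the mutants, and within them the log2 fold change was 0.07.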

How the results depend on the processing

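Of 996 alternative values of single genes, 814 kept their direction and side of the threshold, 126 lost the call, 18 gained one and 38 changed sign. The sign changes of called values were 2: Rian in endothelium with mixed cells left out (0.54) and Tln2 in immune cells without macrophage-like cells (-0.14). The cause of these changes was not tested.

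The number of hosts called in whole libraries, 2, became 1 with no low-count filter, with doublets kept or with a stricter cell filter (1000 genes, a mitochondrial share of 10%), 4 with DESeq2, 0 with the sex covariate and 0 with the replicate block. In epithelium 1 became 3 with no low-count filter, 3 with the replicate block, 2 with DESeq2 or the stricter cell filter and 0 with mixed cells left out. In endothelium 0 became 1 with no low-count filter or DESeq2 and 2 with mixed cells left out. In immune cells 2 became 1 with the sex covariate and 0 without macrophage-like cells. Over the named classes 2 became 0 with DESeq2 or resolution 2 and 1 with doublets kept. Leaving out each library in turn gave 0 to 2 in whole libraries, 0 to 2 in epithelium, 0 to 1 in endothelium, 1 to 2 in immune cells, 0 to 2 over classes and 1 to 2 for genotype by lineage. Mesenchymal (0) and cycling (18) counts stayed within 1.5 times under each alternative run.

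Same-numbered libraries deviated from their group means with correlations of -0.170 and -0.202 over 9071 genes. With 2 heterozygous libraries, their deviations are mirror images of each other. These correlations therefore cannot decide whether the replicate numbers pair the embryos.

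Other sign changes were of uncalled values. They were C430049B03Rik with the replicate block (-0.026) or stricter cells (-0.0063) in whole libraries and with the sex covariate in epithelium (0.25), Mir22hg in endothelium without aerocyte-like cells (-0.19) and in immune cells with library size alone (0.057) or the sex covariate (0.045), Mir17hg in mesenchyme with the sex covariate (-0.12) and in cycling endothelium with 5 genes (0.11), Mir100hg in mesenchyme with the sex covariate (0.015) or doublets kept (0.018). Mesenchymal Mir99ahg gave 0.0042 with no low-count filter, 0.11 with the sex covariate, 0.024 with mixed cells left out and 0.042 with doublets kept. Leaving out each library gave C430049B03Rik -0.019 to 0.093 in whole libraries and -0.17 to 0.11 in epithelium, Mir22hg -0.031 to 0.11, -0.090 to 0.22 and -0.039 to 0.020 in whole libraries, endothelium and immune cells, and Mir142hg -0.15 to 0.054 and -0.037 to 0.18 in whole libraries and immune cells. Mir17hg gave -0.020 to 0.86 in endothelium, and -0.26 to 0.014 and -0.0074 to 0.11 in cycling endothelium and immune cells. Dnm3os gave -0.27 to 1.89 in endothelium and -0.028 to 0.45 in mesenchyme, where Mir155hg gave -1.08 to 0.66, Mir99ahg -0.11 to 0.10 and Mir100hg -0.30 to 0.28.

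With 2 heterozygous libraries, leaving one out assumes that the lone library varies like the mutants. Hosts under about 20 UMIs per library, such as Mir155hg outside immune cells, are limited by depth.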
